A study of Mus musculus with 6 samples.

Results

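Cardiac sarcomere genes were followed in RNA from whole mouse aorta, with attention to Myh7, which encodes the beta (slow) myosin heavy chain. The set comprised 10 genes taken by symbol from the 35275 genes of the deposited table. They were the myosin heavy chains Myh7 and Myh6, the myosin light chains Myl2 and Myl7, the cardiac actin Actc1, the troponins Tnnt2, Tnni3 and Tnnc1, the small heat shock protein gene Hspb7 and the natriuretic peptide gene Nppa. They were picked with earlier results of the same libraries known, for the way Myh7 differed between the genotypes, so their differences are given as a description without a test. All 10 were found in the table, and 8 averaged 1 FPKM or more, the level required for the test across all genes. Myl2 and Nppa did not.

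The EC-Jag1KO group held 3 aorta libraries with Jag1 deleted in endothelial cells, and the Wild-type group held 3 aorta libraries. The series concerns loss of this Notch ligand in mature endothelium and its effect on the vessel wall. The Cre line, the age of the mice, and whether a library came from 1 animal or a pool were not stated in the labels, so the spread between libraries may be partly technical. Levels are in FPKM, which is reads scaled by gene length and library size, so they can be compared between genes.

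Striated muscle contracts when myosin heavy chains of the thick filament pull on actin of the thin filament, and the troponin complex makes this depend on calcium. In the adult mouse heart Myh6 is the main heavy chain, while Myh7 belongs to the embryonic ventricle, to slow skeletal fibres and to hearts under load. Vascular smooth muscle uses another heavy chain, Myh11, and has no troponin complex. Cardiac muscle can be carried along with an aorta at the root, so RNA of these genes in an aortic library may come from the wall or from attached tissue. In bulk tissue, fewer cells of a type and less RNA per cell cannot be told apart.

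Recovered read totals were 19889910 to 25914325 per library. Smooth muscle markers (8 genes) summed to 11796 to 14164 FPKM in EC-Jag1KO libraries and to 14116 to 14829 FPKM in Wild-type libraries, and all 8 endothelial markers were detected. Of 18 cardiac transcription factor genes, 2 (Irx4 and Hand1) were listed at 0 in all 6 libraries and 10 averaged 1 FPKM or more. Nkx2-5, an early factor of the cardiac lineage named after its values were seen, had reads only in Wild-type replicate 3, at 0.0765 FPKM on 3 reads. Tbx20, another heart factor named in the same way, had 109, 82 and 241 reads in EC-Jag1KO and 95, 170 and 194 reads in Wild-type libraries. Jag1 itself was at 13.5, 9.42 and 19.6 FPKM in EC-Jag1KO libraries and at 9.86, 10.6 and 16.9 FPKM in Wild-type libraries. That whole-tissue level does not check a deletion in the endothelium alone. By Xist and Y-linked genes, replicate 3 of each genotype was female and the other libraries were male.

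Myh7 and Myh6 lie next to each other on the minus strand of mouse chromosome 14 (mm10), with Myh7 at chr14:54970688-54994634 and Myh6 at chr14:54941921-54966927, 3760 bases apart. The promoter windows of the pair are shown because these neighbours had unlike patterns across the libraries. They run from 250 bases before to 50 bases after the start in RefSeq (GRCm38.p6), at chr14:54994577-54994876 and chr14:54966558-54966857, both on the minus strand. Capitals mark GGAATG, the MCAT element bound by TEAD factors.
Myh7: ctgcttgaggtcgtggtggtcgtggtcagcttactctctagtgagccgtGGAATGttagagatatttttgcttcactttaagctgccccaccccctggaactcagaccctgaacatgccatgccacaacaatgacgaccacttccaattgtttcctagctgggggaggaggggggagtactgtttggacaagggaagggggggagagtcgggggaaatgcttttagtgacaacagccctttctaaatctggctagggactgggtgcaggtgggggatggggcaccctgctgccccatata
Myh6: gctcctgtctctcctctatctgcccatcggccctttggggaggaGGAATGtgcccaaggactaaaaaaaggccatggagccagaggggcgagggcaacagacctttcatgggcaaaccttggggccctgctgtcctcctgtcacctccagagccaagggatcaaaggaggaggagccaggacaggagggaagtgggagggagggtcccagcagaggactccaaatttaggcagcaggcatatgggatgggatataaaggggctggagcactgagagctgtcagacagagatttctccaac
The element began 201 bases before the start in Myh7 and 206 bases before it in Myh6. The window of a second Myh7 start, at chr14:54994500-54994799, overlaps the first and ends just short of the element. Its lack of a match follows from where the window is cut. GGAATG was 1 of 8 short motifs searched, and the 1 found in the most member windows. On either strand it was found in windows of 6 of the 10 members (6 of 13 windows, since some genes have more than 1 start), against 14.7% of all 32851 RefSeq windows. TGGGAA, the core bound by the Notch effector RBPJ, was found on either strand in neither of these 2 windows. It was present in 2 of the 13 member windows, those of Tnni3 and Tnnc1, against 25.6% of all windows, and in Tnnc1 it overlapped the GGAATG match. The other motifs were TATAAA and the E-box CAGCTG, in 4 member windows each against 13.6% and 16.3% of all windows, the GATA motif AGATAA in 2 against 11.2%, and the CArG box in 2 against 1.63%. The thyroid half-site AGGTCA was in 1 against 16.3%, and the MEF2 motif in 0 against 3.69%. A match in letters is no evidence that a factor binds.

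Myh7 stood far higher in EC-Jag1KO aorta than in Wild-type aorta. It was at 3.55, 1.82 and 5.26 FPKM in EC-Jag1KO replicates 1 to 3, on 484, 225 and 849 reads. The Wild-type libraries had 0.0747, 0.147 and 0.699 FPKM, on 11, 23 and 112 reads. Every EC-Jag1KO library lay above every Wild-type library, and Wild-type replicate 3 was the highest of its group. The means were 3.54 ± 1.72 FPKM in EC-Jag1KO and 0.307 ± 0.342 FPKM in Wild-type libraries (SD, n = 3 each), a ratio of 11.5, and the difference on the log2(FPKM + 1) scale was 1.75. The ratio was 32.0 without Wild-type replicate 3, and between 8.37 and 14.3 with any other library left out. The log2 scale understates the change of genes at so low a level. Of 12165 tested genes, 9 had a larger positive log2 difference. Myh7 was chosen on this contrast and reached the mean of 1 FPKM only through the EC-Jag1KO libraries. Nothing is therefore read from its rank.

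Among the 10 members, Myh7 was the only one whose genotypes did not overlap. For comparison, 6.84% of the 12165 tested genes lay higher without overlap in EC-Jag1KO libraries and 6.73% lay lower without overlap. The members were chosen on this contrast, so nothing is read from that count. Because the genotypes did not overlap for Myh7, its direction had to be the same within each sex, so this split is no further support. The male libraries averaged 2.68 FPKM in EC-Jag1KO and 0.111 FPKM in Wild-type mice (n = 2 each), and the female libraries had 5.26 and 0.699 FPKM. In both genotypes the female library was the highest for Myh7.

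**Figure D1:**
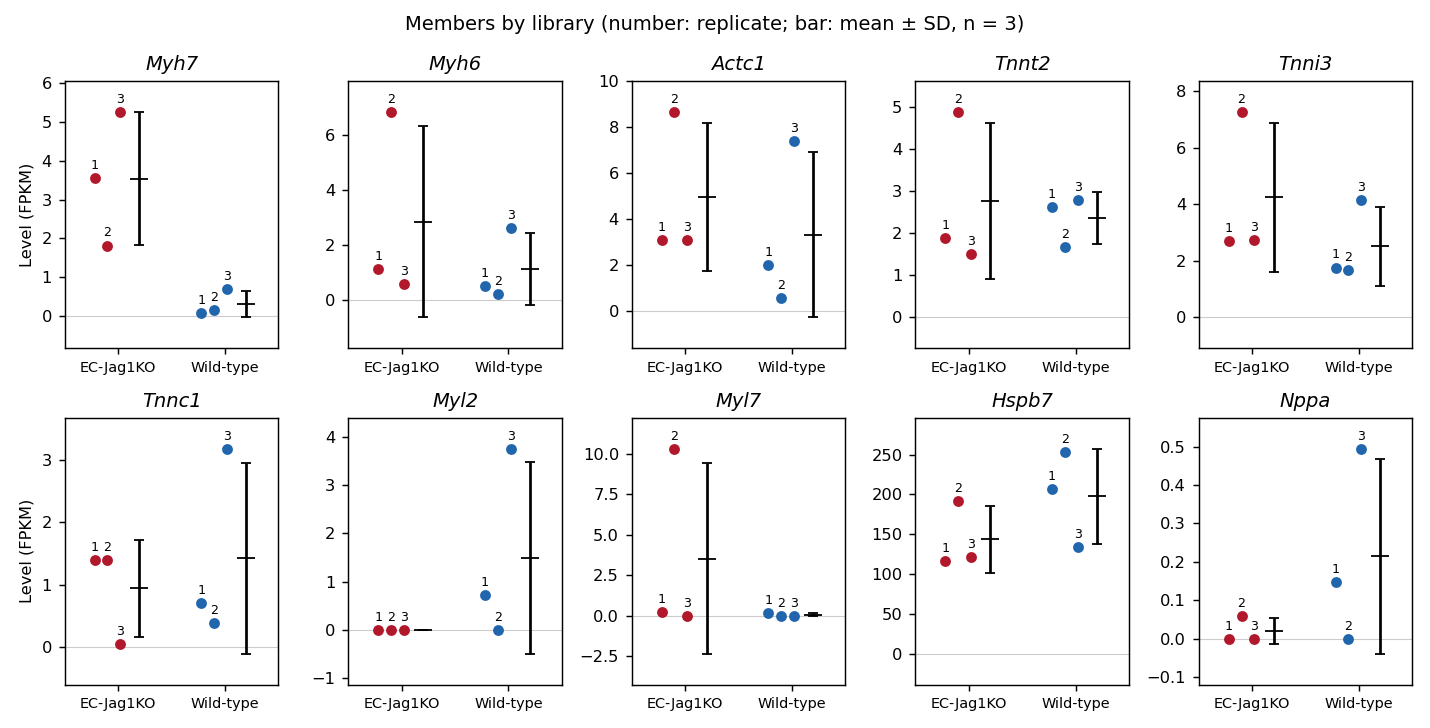
Level of each member (FPKM, linear axes that differ between panels) in 3 EC-Jag1KO libraries (red) and 3 Wild-type libraries (blue); numbers are replicates and black bars are mean ± SD. Myh7 is the panel in which the groups do not overlap, with EC-Jag1KO libraries at 1.82 to 5.26 FPKM and Wild-type libraries at 0.0747 to 0.699 FPKM.

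Myh6, the alpha heavy chain, did not share this pattern. It was at 1.13, 6.82 and 0.584 FPKM in EC-Jag1KO libraries and at 0.536, 0.242 and 2.64 FPKM in Wild-type libraries. EC-Jag1KO replicate 2 and Wild-type replicate 3 were high, the other 4 libraries were at 1.13 FPKM or less, and the groups overlapped. The log2 difference of Myh6 was 0.64, and it was -0.055 without EC-Jag1KO replicate 2. Within the EC-Jag1KO group, replicate 2 was the lowest library for Myh7 and the highest for Myh6.

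The balance between the heavy chains therefore differed between libraries of 1 genotype. Myh7 took 76.3% of the reads of both genes in EC-Jag1KO replicate 1 (95% Wilson interval 72.9 to 79.5%) and 90.2% in EC-Jag1KO replicate 3 (88.2 to 92.0%), but 21.4% in EC-Jag1KO replicate 2 (19.1 to 24.0%). In Wild-type libraries the share was 12.5% (7.13 to 21.0%), 38.3% (27.1 to 51.0%) and 21.4% (18.1 to 25.1%) in replicates 1 to 3. The share in EC-Jag1KO replicate 2 thus lay inside the range of Wild-type libraries even though its Myh7 level was above all of them. These intervals cover counting error only. The genes are close paralogs: of all 100-base windows of the longest Myh7 transcript in GENCODE M21, 11.2% also occur exactly in Myh6 transcripts. The share was 22.2% for windows of 50 bases and 5.43% for windows of 150 bases, so it depends on read length. Some reads therefore cannot be assigned to 1 of the genes.

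**Figure D2:**
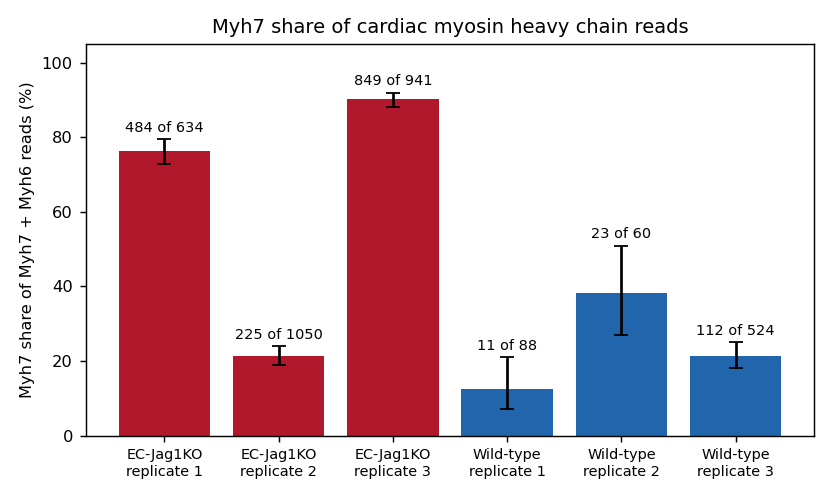
Share of Myh7 in the summed reads of Myh7 and Myh6 (percent) in each library, with 95% Wilson intervals and the read counts above the bars. EC-Jag1KO replicates 1 and 3 stand at 76.3% and 90.2%, while EC-Jag1KO replicate 2 stands at 21.4%, as Wild-type replicate 3 does.

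The antisense RNA gene listed as D830015G02Rik, which GENCODE M21 names Mhrt, overlaps 3662 bases of Myh7 on the opposite strand. It had 4, 11 and 0 reads in EC-Jag1KO libraries and 0, 0 and 1 read in Wild-type libraries. Without a stated strand setting, reads in the shared stretch cannot be told apart. The other genes inside Myh7, Gm17428 and RP23-93K3.2, had 3 reads in all and none.

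The regulatory light chains, which bind the neck of the myosin head, differ between heart chambers. Myl7, the atrial chain, was at 0.232, 10.3 and 0 FPKM in EC-Jag1KO libraries and at 0.143, 0 and 0 FPKM in Wild-type libraries. EC-Jag1KO replicate 2 held 121 of its reads, against 3 in EC-Jag1KO replicate 1 and 2 in Wild-type replicate 1. Myl7 reached the mean of 1 FPKM only through EC-Jag1KO replicate 2. Myl2, the chain of the ventricle and of slow skeletal fibres, was listed at 0 in the 3 EC-Jag1KO libraries and was at 0.714, 0 and 3.76 FPKM in Wild-type libraries. For this gene 3 reads correspond to 0.130 to 0.170 FPKM, which is the level a count of 0 still allows. Both light chains thus had nearly all their reads in 1 or 2 libraries of 1 genotype. Myl2 was at 0 in every EC-Jag1KO library, where Myh7 was high, and in Wild-type replicate 2, where Myh7 was low. Among Wild-type libraries Myl2 and Myh7 were both highest in replicate 3.

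The thin filament genes were low in every library and overlapped between the genotypes. Actc1, cardiac alpha-actin, was at 3.10, 8.67 and 3.09 FPKM in EC-Jag1KO libraries and at 1.98, 0.567 and 7.39 FPKM in Wild-type libraries. Tnni3, the inhibitory troponin of the heart, was at 2.70, 7.28 and 2.75 FPKM in EC-Jag1KO libraries and at 1.76, 1.66 and 4.14 FPKM in Wild-type libraries. In both genes EC-Jag1KO replicate 2 and Wild-type replicate 3 were the highest of their groups. Tnnt2, the tropomyosin-binding troponin, was at 1.88, 4.88 and 1.49 FPKM in EC-Jag1KO libraries and at 2.62, 1.66 and 2.79 FPKM in Wild-type libraries. Tnnc1, the calcium-binding troponin shared by heart and slow skeletal fibres, was at 1.39, 1.39 and 0.0535 FPKM in EC-Jag1KO libraries and at 0.704, 0.386 and 3.18 FPKM in Wild-type libraries. Tnnc1 had 1 read in EC-Jag1KO replicate 3, the library with the most Myh7. It lies within Nisch, a gene at 72.9 to 82.2 FPKM on the other strand, so some of its few reads may belong there. Tnni3 likewise overlaps Dnaaf3 on the same strand, over 1297 bases, where reads may be shared. The opposite-strand genes A530058N18Rik, which spans Actc1, and Ccdc63, which overlaps Myl2, had 0 reads and at most 1 read in any library.

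Nppa, which encodes the atrial natriuretic peptide, was near the counting limit. It had 0, 1 and 0 reads in EC-Jag1KO libraries and 3, 0 and 11 reads in Wild-type libraries. Its opposite-strand neighbour Gm13054 overlaps it over 989 bases. Hspb7, a small heat shock protein of the cardiovascular system, stood on another scale, at 117, 192 and 122 FPKM in EC-Jag1KO libraries and at 206, 253 and 134 FPKM in Wild-type libraries. Its groups overlapped, and its means were 144 ± 42 and 198 ± 60 FPKM (SD, n = 3 each).

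Leaving Hspb7 aside, the other 8 members were all highest in EC-Jag1KO replicate 2 (5 genes) or Wild-type replicate 3 (3 genes). Their levels summed to 10.4, 39.4 and 7.97 FPKM in EC-Jag1KO libraries and to 8.61, 4.51 and 24.4 FPKM in Wild-type libraries. Among Wild-type libraries Myh7 was also highest in replicate 3. Among EC-Jag1KO libraries it was lowest in replicate 2, where the sum was highest. Across all 9 other members the log2 differences ran from -1.01 for Myl2 to 1.20 for Myl7, 5 positive and 4 negative, with a median of 0.070. That median was -0.26 without EC-Jag1KO replicate 2 and -0.089 without Wild-type replicate 2. Single members rested on 1 library: Myl7 differed by 0.086 without EC-Jag1KO replicate 2, and Myl2 by -0.39 without Wild-type replicate 3. Leaving out EC-Jag1KO replicate 2 gave 0.27 for Actc1 and 0.15 for Tnni3, and leaving out Wild-type replicate 2 gave 0.12 for Actc1. The median over all 12165 tested genes was -0.00022.

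Myh7 relative to the mean of the 9 others, on the log2(FPKM + 1) scale, was 0.52, -1.20 and 1.21 in EC-Jag1KO libraries and -1.58, -1.16 and -1.59 in Wild-type libraries. EC-Jag1KO replicates 1 and 3 stood above the rest, and replicate 2 fell within the Wild-type range. The difference between the genotypes was 1.62, and it ranged from 1.10 without EC-Jag1KO replicate 3 to 2.31 without EC-Jag1KO replicate 2.

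Muscle genes outside the set gave no call, and neither did any other tested gene. A lack of calls in the muscle lists therefore does not set them apart from Myh7. Limma on log2(FPKM + 1), adjusted over all genes, called 0 of 12165 genes (0%) at an adjusted p under 0.05, with a smallest adjusted p of 0.232. At an unadjusted p under 0.05 there were 517 higher (4.25%) and 421 lower (3.46%), and limma's voom on recovered reads also called 0. The cardiac and skeletal lists hold 102 genes, 4 of them in more than 1 list (Casq2, Myh7b, Myl3 and Myoz2).

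Among 26 further genes of the cardiac sarcomere and Z-disc, 15 were tested, 7 higher and 8 lower, with a median log2 difference of -0.041 and 0 passing. At an unadjusted p under 0.05, 2 lay higher and 0 lower. The highest levels belonged to Tpm1, Tcap, Myom1, Cryab and Nexn. Tpm1, a tropomyosin that lies along actin, was at 609 ± 61 FPKM in EC-Jag1KO and 697 ± 5 FPKM in Wild-type libraries, with an adjusted p of 0.761 in limma. Tcap, the titin cap, was at 249 ± 28 and 274 ± 36 FPKM, and Myom1, an M-band protein gene, was at 174 ± 32 and 173 ± 16 FPKM, again with EC-Jag1KO given first. Cryab, a small heat shock protein gene, and Nexn, an actin-binding protein gene, had log2 differences of -0.20 and -0.23, with 95% intervals that span 0. Actn2, the Z-disc alpha-actinin, and Tmod1, which caps thin filaments, were named after their values were seen. Actn2 was at 12.6 ± 3.8 FPKM in EC-Jag1KO and 6.18 ± 0.30 FPKM in Wild-type libraries, with a limma adjusted p of 0.380. Tmod1 was at 9.13 ± 0.45 and 6.59 ± 0.54 FPKM in the same order, with a limma adjusted p of 0.402. Of the 15 tested genes these 2 lay higher without overlap and 2 lay lower, Tpm1 and Synpo2l (the last named after its values were seen), against 6.84% and 6.73% of all tested genes. None of the 4 passed.

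Among 24 genes of cardiac calcium handling, conduction and metabolism, 12 were tested, 4 higher and 8 lower, with a median of -0.12 and 0 passing (0 higher and 1 lower at an unadjusted p under 0.05). Atp2a2, the calcium pump of heart and smooth muscle, was at 233 ± 23 FPKM in EC-Jag1KO and 256 ± 16 FPKM in Wild-type libraries. Cacna1c, the pore of the L-type calcium channel, was at 12.9 ± 2.4 FPKM in EC-Jag1KO and 14.1 ± 0.7 FPKM in Wild-type libraries. Fabp3, a fatty acid carrier of heart and brown fat, was at 31.2 ± 11.2 and 39.0 ± 17.8 FPKM in the same order. Cox8b and Cox7a1, respiratory chain subunits of striated muscle and brown fat, ranged from 25.1 to 82.1 and from 17.1 to 43.2 FPKM in EC-Jag1KO libraries, and from 13.3 to 129 and from 6.56 to 53.2 FPKM in Wild-type libraries. The summed adipocyte markers ranged from 896 to 1865 FPKM in EC-Jag1KO and from 285 to 1919 FPKM in Wild-type libraries. The part of fat in these levels was not tested.

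Chamber genes, and Mb, which is not a chamber gene, were also uneven between libraries. Those outside the set, except Myl3, were named after their values were seen. Sln, the atrial regulator of the calcium pump, had 1, 46 and 5 reads in EC-Jag1KO libraries and none in Wild-type libraries. Mb, myoglobin, had 6, 45 and 19 reads in EC-Jag1KO and 35, 0 and 222 reads in Wild-type libraries. Nppb, which encodes the B-type natriuretic peptide, had reads only in Wild-type libraries, with 2, 0 and 11. Myl3, the ventricular and slow-fibre essential light chain, had 3, 8 and 1 reads in EC-Jag1KO and 16, 0 and 68 reads in Wild-type libraries. Myl4, the atrial essential light chain, was more even, with 132, 272 and 104 reads in EC-Jag1KO and 156, 136 and 143 reads in Wild-type libraries. Atrial Myl7 and Sln were highest in EC-Jag1KO replicate 2, and ventricular Myl2 and Myl3 in Wild-type replicate 3. The atrial peptide gene Nppa went the other way, with its most reads, 11, in Wild-type replicate 3.

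Among 18 cardiac transcription factor genes, 10 were tested, 3 higher and 7 lower, with a median of -0.062 and 0 passing (1 higher and 0 lower at an unadjusted p under 0.05). Thra, a thyroid hormone receptor of the kind through which the hormone shifts Myh7 to Myh6 in heart, was at 89.8 ± 4.5 FPKM in EC-Jag1KO and 95.1 ± 10.5 FPKM in Wild-type libraries. Mef2d and Mef2a, myogenic enhancer factors, had log2 differences of -0.047 and 0.23, and Srf, the serum response factor, of -0.077. Myocd, the coactivator of Srf in heart and smooth muscle, was at 37.9, 32.4 and 53.4 FPKM in EC-Jag1KO and at 31.7, 27.8 and 27.7 FPKM in Wild-type libraries, with a limma adjusted p of 0.613. Tead1, a TEAD factor named after its values were seen, had a log2 difference of 0.042. Gata4, a cardiac factor likewise named after its values were seen, had 7 reads or fewer in each library.

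No skeletal muscle gene passed the test. Of 30 such genes 6 were tested, 3 higher and 3 lower, with a median of -0.047 and 0 passing, also at an unadjusted p under 0.05. Casq1, the calcium store protein of fast fibres, was at 22.6 ± 9.0 FPKM in EC-Jag1KO and 22.5 ± 9.3 FPKM in Wild-type libraries. Tnnt3 and Myl1, fast-fibre troponin and light chain genes, had log2 differences of 0.27 and 0.36, and the metabolic genes Eno3 and Pgam2 of -0.099 and -0.14, each with a 95% interval that spans 0. The defining genes Myod1, Myf6, Pax7 and Tnnc2 were listed at 0 in all 6 libraries. The fast heavy chains Myh1 and Myh2, named after their values were seen, were at 0.0256 FPKM or less in every library.

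Slow skeletal fibres use Myh7 as their heavy chain, and no gene of their list passed. Of 8 genes 4 were tested, 3 higher and 1 lower, with a median of 0.080 and 0 passing, also at an unadjusted p under 0.05. Tpm3, the slow tropomyosin that many cells share, was at 60.5 ± 3.1 FPKM in EC-Jag1KO and 58.8 ± 1.0 FPKM in Wild-type libraries. Tnnt1, the slow troponin T, was at 4.52 ± 1.39 and 4.08 ± 1.27 FPKM, and the Z-disc gene Myoz2 at 12.7 ± 9.2 and 8.08 ± 3.05 FPKM, with EC-Jag1KO given first. Myl6b had a log2 difference of -0.26. Tnni1, the slow troponin I, was at 0.0983 FPKM or less in every library, and Myh7b, a paralog of Myh7, at 0.0755 FPKM or less; both were named after their values were seen.

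**Figure D3:**
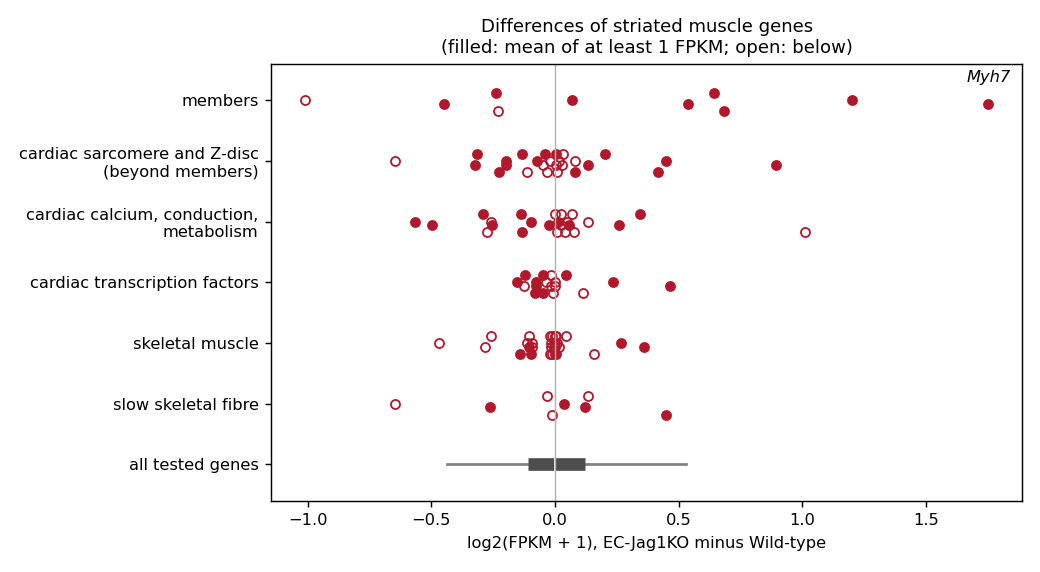
Difference in log2(FPKM + 1), EC-Jag1KO minus Wild-type, for each measured gene of the set and of 5 related lists (points; filled where the mean is at least 1 FPKM), with the middle 50% (thick bar) and middle 95% (thin line) of all 12165 tested genes below. Myh7 stands furthest to the right at 1.75, and the medians of the 5 lists, over their tested genes (filled points) only, lie between -0.12 and 0.080.

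The profile of Myh7 over the 6 libraries lay closer to those of other genes than to those of the 7 other members in the tested table. Likeness was the root-mean-square difference between log2(FPKM + 1) profiles centred on their own means, so that 0 is an identical shape. Over 11161 tested genes the 5 nearest were Gria1 (0.227), Gdf15 (0.247), Sytl5 (0.283), Ghr (0.356) and Flrt1 (0.366). The nearest tested member was Tnni3 at 0.936, and Myh6 stood at 1.21. The nearest of 11161 genes was set here against the nearest of 7, for a gene chosen on this contrast. This order is therefore a description and no test of whether Myh7 differs from the members.

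Gria1, a glutamate receptor subunit gene, was at 6.50, 4.66 and 7.39 FPKM in EC-Jag1KO libraries and at 1.33, 1.10 and 2.34 FPKM in Wild-type libraries. Ghr, the growth hormone receptor gene, was at 52.2, 38.3 and 63.6 FPKM in EC-Jag1KO libraries and at 20.8, 18.6 and 30.9 FPKM in Wild-type libraries. In both, as in Myh7, replicate 2 was the lowest EC-Jag1KO library and replicate 3 the highest of each genotype. Flrt1, a leucine-rich transmembrane protein gene, was at 3.76, 2.97 and 9.05 FPKM in EC-Jag1KO and at 1.45, 1.32 and 1.47 FPKM in Wild-type libraries. Gdf15, a stress-induced cytokine gene, and Sytl5, a vesicle-trafficking gene, averaged 5.68 ± 1.60 and 7.87 ± 3.79 FPKM in EC-Jag1KO libraries and 1.11 ± 0.12 and 1.07 ± 0.24 FPKM in Wild-type libraries (SD, n = 3 each). All of these genes were selected for their likeness to a profile that separates the genotypes, so their own separation follows from the choice.

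Myh6, in contrast, lay nearest to the members Tnni3 at 0.384 and Actc1 at 0.404. The rest of the tested members lay farther from it than the outside genes named next. Tnnt2 stood at 0.571, Tnnc1 at 0.701, Myl7 at 0.710, Hspb7 at 1.04 and Myh7 at 1.21. The nearest genes outside the set were Ddt, Mlana, Rps27rt, Pcbd2 and Orm3, at 0.420 to 0.543. Several of these were close to the counting limit, with 57 reads or fewer for Ddt in any library.

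**Figure D4:**
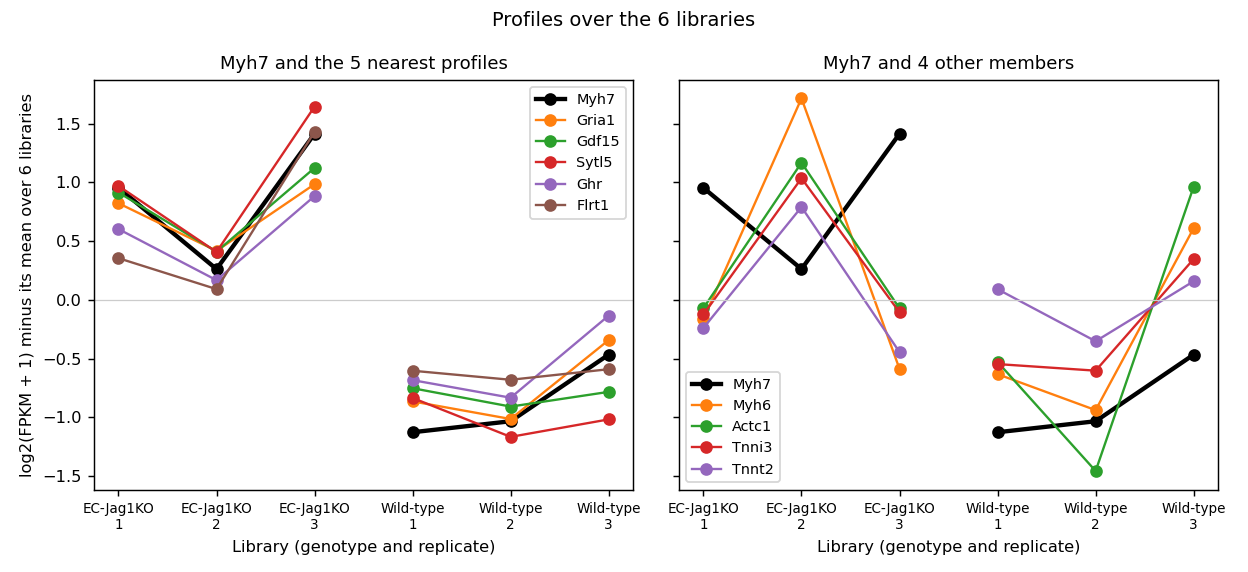
Centred log2(FPKM + 1) in each of the 6 libraries for Myh7 with the 5 genes of nearest profile (left) and with 4 other members (right); lines only join values of 1 gene within a genotype. Myh7 is lowest among EC-Jag1KO libraries in replicate 2, in which Myh6, Actc1, Tnni3 and Tnnt2 are highest.

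Of 8 marker lists of other cell types, 1 had summed levels that did not overlap between the genotypes, as Myh7 did. Single genes of other lists also differed in level. Of 8 smooth muscle markers 4 were lower without overlap (Myh11, Tagln, Lmod1 and Smtn, named after their values were seen) and 0 higher. By the sign of the log2 difference, 6 of the 8 were lower and 2 higher. Actg2, named after its values were seen, was at 282 ± 53 FPKM in EC-Jag1KO and 206 ± 27 FPKM in Wild-type libraries. Its limma p was 0.038 before adjustment. Of 7 adventitial fibroblast markers 3 were higher without overlap and 0 lower. Over all tested genes, 6.73% were lower and 6.84% higher without overlap. Erythroid markers summed to 190 to 918 FPKM in EC-Jag1KO and to 740 to 1518 FPKM in Wild-type libraries. Of these 5 genes 4 were lower at an unadjusted limma p under 0.05, against 3.46% of all tested genes. After adjustment 0 passed, and genes of 1 cell type can vary together, so the 4 are not independent observations. Mesothelial and epicardial markers, which label the coverings of organs and heart, summed to 2.91, 4.15 and 2.73 FPKM in EC-Jag1KO libraries and to 1.07, 0.758 and 0.880 FPKM in Wild-type libraries. Of 7 genes 4 were higher without overlap, against 5.06% of the 10657 genes with reads and a mean under 1 FPKM; 0 were lower, against 2.9% of those genes. Tcf21 and Msln were named after their values were seen. Tcf21 was at 1.57, 1.64 and 1.20 FPKM in EC-Jag1KO and at 0.588, 0.358 and 0.350 FPKM in Wild-type libraries. Msln, the defining mesothelial marker, had 11, 12 and 14 reads in EC-Jag1KO and 4, 3 and 2 reads in Wild-type libraries. None of the 7 reached the mean of 1 FPKM needed for the test, and the part of any of these lists in the level of Myh7 was not tested.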

How the data were processed

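Total RNA of mouse aorta was column-purified, per the labels' protocols, and sequenced in 6 libraries. The authors deposited 1 table of FPKM values with gene lengths and coordinates, per the file headers. STAR, HTSeq, edgeR and mm10 are named in the submitters' processing notes. Their versions and roles, the strand setting, the annotation and any filter were not stated in these sources. The gene length column deposited by the authors is in bases.

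FPKM times length gave whole reads for 211650 of 211650 values (100%, tolerance 0.05 read); these reads set depth and intervals. Values were analysed as log2(FPKM + 1). The 12165 genes averaging 1 FPKM or more entered limma 3.58.1 (R 4.3.3), modelled on genotype alone with the variance trend. Tests were two-sided, with a threshold of 0.05 after Benjamini-Hochberg adjustment. The fit was tested on simulated data. Replicate pairs of a genotype differed by chi-square per degree of freedom of 24.4 to 57.1, so none is a library repeated. Plots used matplotlib 3.10.9 in Python 3.11.15.

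The members and gene lists were chosen with earlier results of these data known. Of the list entries, 168 matched by symbol and 1 by gene ID. Named are all members, Jag1, in each muscle list the 5 genes of highest mean level, the 5 genes whose profile is nearest to Myh7 and to Myh6, and genes overlapping a member; genes at 0 in every library are also named, and other genes are marked as named after their values were seen. Predicted genes, clones and pseudogenes were left out of the profile search. Alternatives changed the pseudocount, filter, scaling, variance model, replicate block, sex term, use of reads, and each library in turn. No per-sample column was left unused.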

Additional observations from a re-analysis of the deposited data

How the results depend on the processing

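The log2 difference of Myh7 was positive in every alternative run that gave it. Its genotypes did not overlap, so leaving out a library or changing the pseudocount could not reverse the sign. The difference was 3.36 with a pseudocount of 0.1 and 4.0 on recovered reads in voom's log scale. Myh7 minus the other members was 3.32 and 4.12 there, since a smaller offset shrinks low values less. With 1 library left out, Myh7 ranged from 1.48 to 2.06 and Myh7 minus the others from 1.10 to 2.31. The median of the other members ranged from -0.26 to 0.31, so its sign depended on the libraries. Myh6 ranged from -0.055 to 1.11, Tnnt2 from -0.31 to 0.31 and Tnnc1 from -0.55 to 0.24; the cause was not tested. Genes called across the table numbered 1 with sex as a covariate (RP24-479J14.1) and 0 to 4 with 1 library left out. The 4 were Gm14287, Gm12191, Rpl3-ps1 and Eif3s6-ps2, called lower without EC-Jag1KO replicate 1. Every other alternative called 0 genes, and no cardiac or skeletal gene of the lists was called in any. Genes with an unadjusted p under 0.05 numbered 938 in the fit reported, 1436 without the filter, 612 with a minimum mean of 5 FPKM, 1437 without EC-Jag1KO replicate 2, 594 without EC-Jag1KO replicate 1 and 601 without Wild-type replicate 2. Same-numbered libraries correlated at 0.055, 0.051 and -0.050 in their deviations from group means, and differently numbered ones at -0.24 to 0.19. With 3 libraries per genotype these values cannot exclude pairing, and the sexes did match by number. With the replicate block 0 genes were called, as without it. Myh7 differed by 1.75, a value that a balanced block leaves unchanged. Depth limits Myl2, Myl7, Nppa and Tnnc1, which had 121 reads or fewer in every library.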
